A study of Gallus gallus with 4 samples.

Results

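The change of the mediolateral expression ratio between Hamburger-Hamilton stages HH30 and HH35 was followed gene by gene in chick embryos, in the optic tectum, the part of the midbrain roof in which retinal axons end. A spot entered where it carried a gene and its signal-to-noise score, the mean foreground less the background over the spread of the background, exceeded 3 in both channels of both mediolateral arrays. This held for 16639 of 42034 gene spots, or 39.6%, which gave 15983 genes and unnamed features once the brightest spot stood for each gene. Of these, 5715 had a gene symbol, of 8612 genes with a symbol on the array, and only these are named. A log2 ratio of Cy5 over Cy3 of at least 0.585 either way, a 1.5-fold difference between the channels, was called a gradient, and each gene was grouped as gradient kept, lost, gained or reversed at HH35.

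The study bisected tecta of incubated embryos, with no genetic or drug treatment, into a medial and a lateral piece at HH30 and HH35 and into an anterior and a posterior piece at HH35 and HH37. Total RNA of 60 pieces was pooled for each channel of a two-colour array, so each of the 4 groups was 1 array of pooled embryos, with no replicate and no dye swap. No difference between stages therefore has a replicate check, none was tested, and stage, array and labelling reaction cannot be told apart. Values are sizes and counts.

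The side that each dye stands for is not settled on the mediolateral arrays. By the dye labels Cy5 held the medial and Cy3 the lateral pool at both stages. The authors' deposited table, whose columns are headed as medial over lateral, runs as Cy3 over Cy5. Its log2 values correlated with the ratios computed here only after their sign was turned, with r = 0.727 at HH30 and 0.726 at HH35 across 41824 spots. Both arrays run the same way, so every comparison between the stages is given by channel and no side is named.

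As background, the tectum holds an ordered map of the retina. Along its mediolateral axis, which runs from the dorsal midline outward, EphB receptors, ephrin-B ligands and Wnt proteins are known as positional cues for retinal axons. The dorsal midline, or roof plate, secretes Wnt and BMP proteins, the floor plate on the ventral side secretes Sonic hedgehog, and the isthmus at the border with the hindbrain secretes FGF8. Between the stages compared, tectal progenitors leave the cycle and the layers of the tectum form.

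The pools carried midbrain genes on both arrays. PAX7, EN1 and MEIS2, transcription factors of the midbrain roof, passed the filter, as did all 18 maturing-neuron genes that had a spot. The median spot intensity in Cy5 and Cy3 was 135 and 130 at HH30 and 149 and 140 at HH35. Repeated spots of 10 control sequences, 32 spots each, gave a median SD of the ratio of 0.15 at HH30, 0.16 at HH35 and 0.23 for the difference, which measures spread within an array only. In 432 genes with 2 passing spots, the differences between stages of both spots lay a median of 0.21 apart, with a 90th percentile of 0.52.

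Few gradients were found at both stages. At HH30, 320 features were at least 1.5-fold higher in Cy5, 2.0% of the 15983 measured, and 205 or 1.28% in Cy3. At HH35 the numbers were 243, or 1.52%, in Cy5 and 194, or 1.21%, in Cy3. The gradient was kept in 48 features (0.30%), lost in 470 (2.94%), gained in 382 (2.39%) and reversed in 7 (0.0438%), and the remaining 15076 had none at either stage. By symbol, 11 genes kept it, 153 lost it, 121 gained it and 4 reversed it. The balance of lost to gained depends on how the arrays are scaled. With both arrays at equal spread, 704 were lost and 163 gained. With the ratios of each array centred on their median in place of a brightness-dependent correction (loess), 493 were lost and 548 gained.

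**Figure D1:**
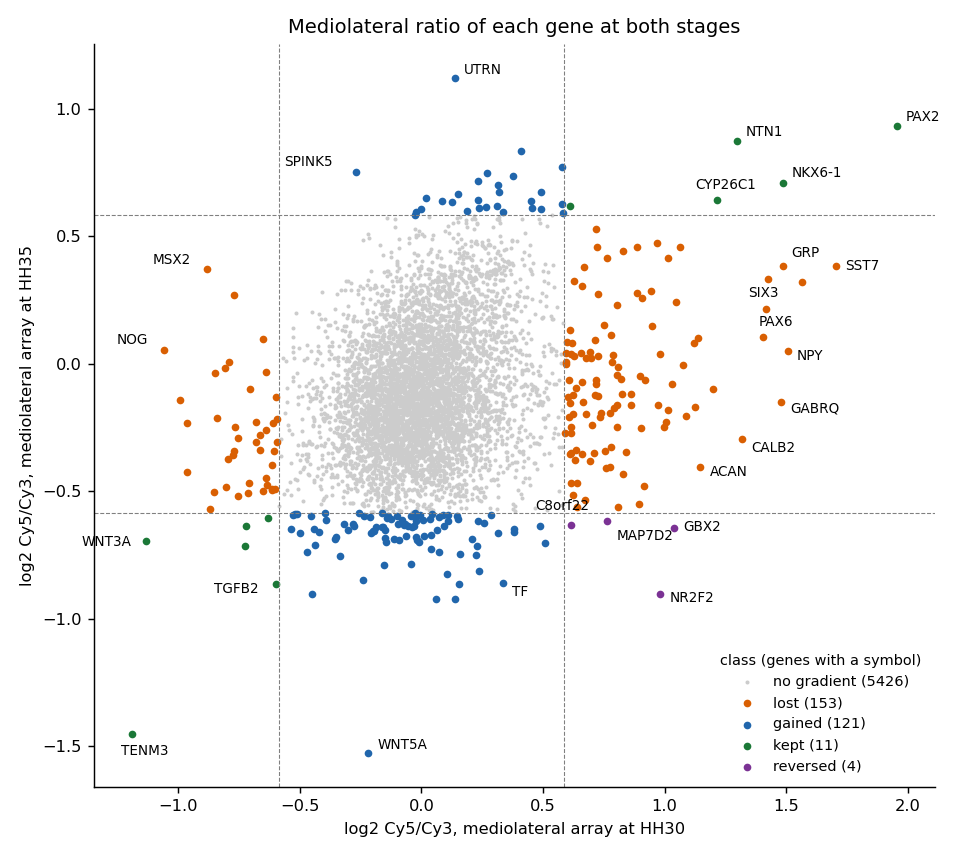
Log2 Cy5/Cy3 ratio of each of the 5715 genes with a symbol on the mediolateral array at HH30 (x axis) and at HH35 (y axis), 1 point per gene, coloured by class, with dashed lines at 0.585 either way. PAX2 and TENM3 stand at opposite corners as kept gradients, WNT5A at -1.53 at HH35 only, and NR2F2 at 0.98 and then -0.91.

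The channels differed in what was lost and gained. Among lost features 281 had been higher in Cy5 and 189 in Cy3, and among gained ones 211 were higher in Cy5 and 171 in Cy3. Under median centring the lost split 211 to 282 and the gained 198 to 350. The ratio was lower at HH35 by at least 1.5-fold in 789 features (4.94%) and higher by as much in 272 (1.70%). Of 112 genes with a symbol that lost a Cy5 gradient, 96 differed between the stages by at least 1.5-fold. Of 41 that lost a Cy3 gradient, 12 did, and the others differed by less. Of the 93 that gained a Cy3 gradient 46 differed by as much, against 6 of 28 that gained a Cy5 gradient.

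Features past the limit at either stage stood on the same side of the other array more often than all features did. Of the 320 features higher in Cy5 at HH30, 54.1% were still on the Cy5 side at HH35, against 43.7% of all features. Their median ratio at HH35 was 0.033, against -0.049 over all features. Of the 205 higher in Cy3 at HH30, 82% were still on the Cy3 side, against 56.3%, at a median of -0.233. Read backwards, 90.1% of the 243 features higher in Cy5 at HH35 stood on the Cy5 side at HH30, against 51.7% of all features. Of the 194 higher in Cy3 at HH35, 68% stood on the Cy3 side at HH30, against 48.3%. Across all 15983 features the ratios at the 2 stages correlated with r = 0.30, a description of 2 arrays that share the dye orientation and the spots.

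Of the 32 kept Cy5 features 5 had a symbol, and 4 patterning genes among them are described. PAX2, a paired-box transcription factor of the midbrain-hindbrain border, had the largest ratio of all genes with a symbol at HH30, 1.95 or 3.87-fold, and stood at 0.93 or 1.91-fold at HH35. NKX6-1, a homeobox gene of ventral progenitors, was at 1.49 and then 0.71. NTN1, the secreted axon guidance protein netrin-1, was at 1.30 and 0.87. CYP26C1, an enzyme that degrades retinoic acid, was at 1.21 and 0.64. The ratio was thus smaller at HH35 in all 4.

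The channel levels show where the smaller ratios came from, given as intensities after scaling all 4 arrays to a common brightness, on which comparisons across arrays rest. PAX2 read 869 in Cy5 and 224 in Cy3 at HH30 and 399 and 209 at HH35. NKX6-1 read 3874 and 1384 at HH30 and 1064 and 651 at HH35. In PAX2 the level in Cy3 stayed close while that in Cy5 was lower, and in NKX6-1 both were lower. In pooled tissue, fewer cells of a type and less RNA per cell cannot be told apart.

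Of the 16 kept Cy3 features 6 had a symbol. TENM3, a teneurin, a transmembrane adhesion protein known from the topographic wiring of the mouse visual system, was at -1.19 at HH30 and -1.45 at HH35, 2.28-fold and 2.73-fold higher in Cy3. Its levels were close at both stages, 688 in Cy5 and 1569 in Cy3 at HH30 against 573 and 1566 at HH35. WNT3A, a roof plate Wnt, was at -1.13 and -0.69. TGFB2, a secreted growth factor, was at -0.60 and -0.86. COL23A1, a transmembrane collagen, was at -0.73 and -0.71, the Hedgehog co-receptor gene BOC at -0.72 and -0.64, and the FGF receptor gene FGFR2 at -0.63 and -0.61. No difference among these 6 reached 1.5-fold.

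The limit divides genes with nearly equal values. Just inside, on the weaker of both stages, stood FGFR2, BOC and CYP26C1. Just outside, and counted as lost, stood RASL11AL at -0.87 and -0.57, PCDH1 at 0.72 and 0.53, SLC16A3 at -0.75 and -0.52 and OLFML3 at -0.71 and -0.51.

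Genes of the roof plate and dorsal midline moved toward Cy5. Of 28 on the list, 12 were measured. Their median ratio was -0.20 at HH30 and 0.31 at HH35, while the median of all features was 0.01 and -0.05. The ratio was higher at HH35 in 10 of the 12, which 45.4% of all features were, by at least 1.5-fold in 4, against 1.70% of all features, and lower by as much in 1. At HH30, 5 of the 12 stood past the limit in Cy3, against 1.28% of all features, and at HH35 the number was 2, against 1.21%.

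NOG, the BMP antagonist noggin, was at -1.06 at HH30, next to WNT3A the most negative of these genes, and stood at 0.05 at HH35. Its levels were 829 in Cy5 and 1729 in Cy3 at HH30 and 279 and 269 at HH35, so it was lower in both channels and the difference between them was gone. MSX2, a homeobox target of BMP signals, went the other way in level, from 828 and 1528 to 3182 and 2461, and its ratio from -0.88 to 0.37. WNT3, a Wnt ligand known as a mediolateral cue for retinal axons in the tectum, was at -0.96 and -0.43. PAX7, a paired-box gene of the dorsal midbrain, was at -0.84 and -0.21. BMP4, a roof plate BMP, stood at -0.10 and 0.40 and had no gradient at either stage.

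Of the 12, 2 had a lower ratio at HH35. ZIC2, a zinc-finger gene of the dorsal neural tube, was at 0.07 at HH30 and -0.74 at HH35 and gained a Cy3 gradient. CRABP1, which binds retinoic acid in the cell, was at 0.76 and 0.42 and lost a Cy5 gradient. WNT1 and BMP7, whose single spots each had a Cy5 score under 3 at both stages, were not measured. The roof plate shift kept its sign in 8 other ways of processing, at a median difference of 0.26 to 0.54 against 0.47. With a score above 3 asked of only 1 channel, however, the medians of the then 17 genes were -0.10 and -0.13, so there the list median did not change sides.

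**Figure D2:**
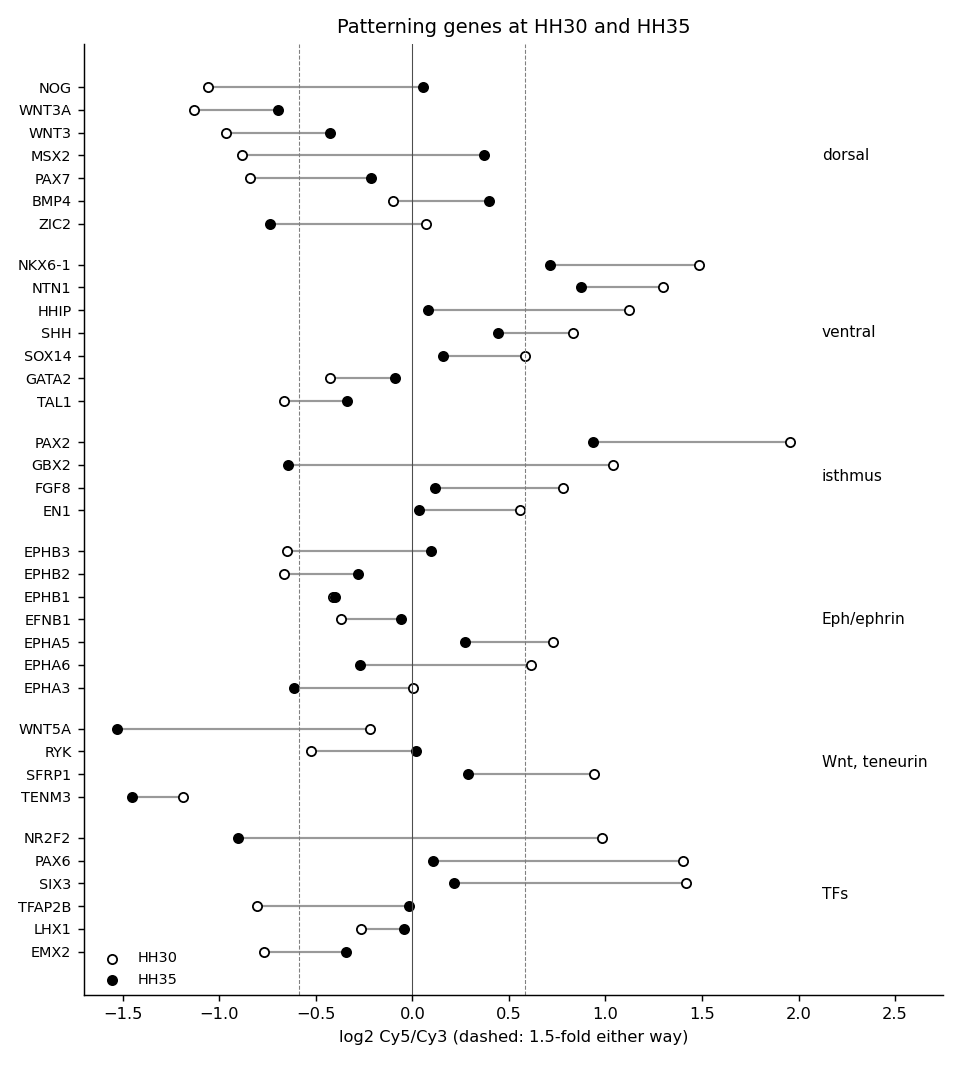
Log2 Cy5/Cy3 ratio of 35 patterning genes at HH30 (open circles) and HH35 (filled circles), grouped by role, with dashed lines at 1.5-fold either way; each circle is 1 array. Most circles lie nearer to 0 at HH35, while WNT5A, TENM3, ZIC2 and EPHA3 lie further toward Cy3 and GBX2 and NR2F2 cross from Cy5 to Cy3.

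Genes of the ventral midbrain and floor plate stood on the Cy5 side at HH30 and nearer to 0 at HH35. The 13 measured of 30 had a median of 0.56 and then 0.16. With a score above 10 asked of both channels the 10 genes that remained had medians of 0.18 and 0.11, and the median difference turned from -0.30 to 0.08, with 5 lower and 5 higher. At HH30, 5 of the 13 were past the limit in Cy5, against 2.0% of all features, and 2 in Cy3, against 1.28%. At HH35 only NKX6-1 and NTN1 were, both in Cy5, where 1.52% of all features were, against 1.21% in Cy3. HHIP, a membrane protein that binds Hedgehog ligands and is itself a target of the pathway, was at 1.12 and 0.08. SHH, the Sonic hedgehog ligand, was at 0.83 and 0.44, with levels of 1239 in Cy5 and 697 in Cy3 at HH30 and 1511 and 1111 at HH35. The transcription factor gene SOX14 was at 0.58 and 0.16, just under the limit at HH30.

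The 4 genes of this list on the Cy3 side at HH30 were transcription factors known from GABAergic neuron precursors of the mouse midbrain. SOX14, on the Cy5 side, is known from GABAergic neurons too. TAL1 was at -0.67 and -0.34, TAL2 at -0.71 and -0.47, GATA2 at -0.43 and -0.09 and GATA3 at -0.43 and -0.14. All 4 lay nearer to 0 at HH35. TAL1 is also on the blood list.

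Isthmic genes all stood on the Cy5 side at HH30 and all had a lower ratio at HH35, or 6 of 7 in the authors' values. The 7 measured of 21 on the list had a median of 0.55 at HH30 and 0.03 at HH35, and in 3 the ratio was lower by at least 1.5-fold, against 4.94% of all features. GBX2, a homeobox gene of the anterior hindbrain side of the isthmus, was at 1.04 at HH30 and -0.64 at HH35. FGF8, the isthmic signal, was at 0.78 and 0.11, and EN1, a homeobox gene of the midbrain and isthmus, at 0.55 and 0.04. On the anteroposterior array at HH35, where Cy5 held the posterior pool by the labels and the authors' table alike, PAX2 stood at 3.0 and EN1 at 1.69, but FGF8 at 0.12 and GBX2 at -0.25, and the median of the 7 was 0.12. How much isthmic tissue each medial or lateral piece held is not given in the sources used here, and its part in these ratios was not tested.

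Eph receptors and ephrins changed little as a group, with opposite shifts among their classes. The 11 measured of 24 had a median of -0.07 at HH30 and -0.06 at HH35. The receptors of ephrin-B stood on the Cy3 side at HH30. EPHB2 was at -0.66 and then -0.28, EPHB3 at -0.65 and 0.10, and EPHB1 at -0.41 and -0.40. EPHB3 levels were 612 in Cy5 and 961 in Cy3 at HH30 and 659 and 616 at HH35, so the Cy3 level was lower and the Cy5 level close. The ligand gene EFNB1 was at -0.37 and -0.06. Neither EPHB1 nor EFNB1 reached the limit at either stage, and EFNB2, whose Cy5 score at HH35 was 2.21, was not measured.

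Receptors of ephrin-A moved toward Cy3. EPHA6 was at 0.62 and then -0.27, and EPHA5 at 0.73 and 0.27, so both lost a Cy5 gradient. EPHA3, known for its graded expression along the anteroposterior axis, was at 0.01 at HH30 and -0.61 at HH35. On the anteroposterior arrays EPHA3 stood at -2.46 at HH35 and -1.71 at HH37.

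The Wnt pathway held the largest gained gradient. WNT5A, a ligand of the noncanonical branch, was at -0.22 at HH30 and -1.53 at HH35, 1.16-fold and 2.88-fold higher in Cy3. Its levels were 2140 in Cy5 and 2490 in Cy3 at HH30 and 659 and 1901 at HH35. The Cy5 level was thus lower by far more than the Cy3 level. On the anteroposterior arrays, which share the dye orientation, WNT5A stood at -0.37 and 0.06, within the limit. The part of the dye orientation in its mediolateral ratio was not tested. The class of WNT5A held in all 9 alternatives that class a gene by the same limit. WNT5A had 1 passing spot, so those that change only the filter or average the spots could not alter its class.

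Other Wnt genes differed less. RYK, a Wnt receptor known to guide retinal axons, was at -0.52 and 0.02. SFRP1, a secreted Wnt inhibitor, was at 0.94 and 0.29 and lost a Cy5 gradient. LEF1, a transcription factor of the canonical branch, was at -0.85 and -0.50, and CTNNB1, which encodes beta-catenin, at -0.65 and -0.50. Of 50 genes on the list 18 were measured, and their median was 0.00 at HH30 and -0.11 at HH35.

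**Figure D3:**
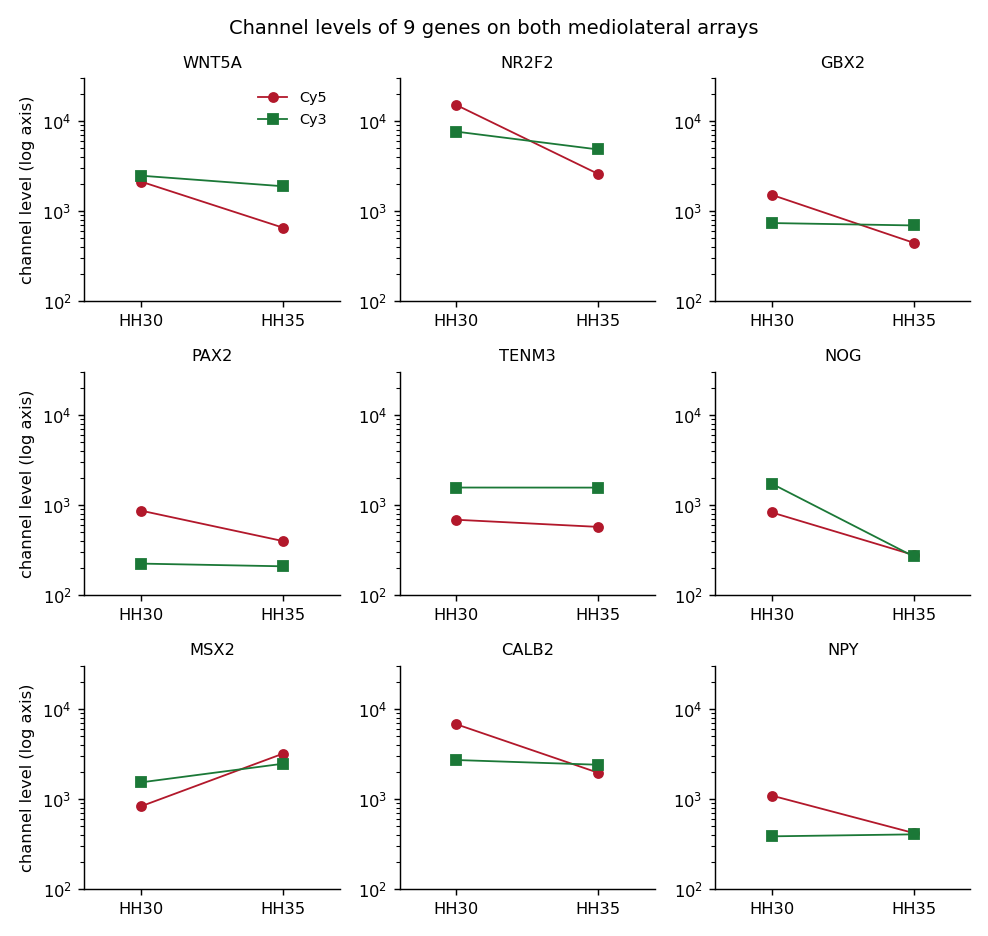
Level of 9 genes in Cy5 (circles) and Cy3 (squares) on the mediolateral arrays at HH30 and HH35, as intensities after scaling all 4 arrays together, on a log axis; each point is 1 channel of 1 array. In WNT5A, NR2F2, GBX2, PAX2, CALB2 and NPY mainly the Cy5 level is lower at HH35, in NOG both levels are lower, in MSX2 both are higher, and in TENM3 both stay close.

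Of the 7 reversed features 4 had a symbol, and all 7 were higher in Cy5 at HH30 and in Cy3 at HH35. NR2F2, an orphan nuclear receptor also known as COUP-TFII, was at 0.98 and -0.91, the largest difference of all genes with a symbol at -1.89. Its levels were 15184 in Cy5 and 7687 in Cy3 at HH30 and 2600 and 4869 at HH35. GBX2 read 1524 and 741 at HH30 and 447 and 697 at HH35. MAP7D2, related to microtubule-associated proteins, was at 0.76 and -0.62, and C8orf22, a gene of unknown role here, at 0.62 and -0.63. The 2 MAP7D2 spots disagreed, with differences of -1.38 and 0.03, and as the mean of its spots it had no gradient. The authors' deposited table, which runs as Cy3 over Cy5, gave NR2F2 a ratio of 0.49 at HH30 and 1.87 at HH35 and GBX2 0.45 and 1.68.

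NR2F2 also stood at -0.93 and -1.75 on the anteroposterior arrays at HH35 and HH37, and MAP7D2 at -0.50 and -1.51. With the mean of the anteroposterior arrays subtracted, an alternative added after the data were seen, both counted as lost. That mean also holds expression differences along the anteroposterior axis, so it cannot isolate what the dye orientation gives.

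PAX6 and SIX3, transcription factors chosen for the size of their difference, lost a Cy5 gradient. PAX6, a paired-box gene of progenitors and of some neurons, was at 1.4 and 0.11. Its level was lower in both channels at HH35, with changes of -1.98 in Cy5 and -0.69 in Cy3 on the log2 scale. SIX3, a homeobox gene of the forebrain and eye, was at 1.42 and 0.21. Related regional factors differed, since SIX6 had no gradient, at 0.21 and 0.09, and EMX2 lost one in Cy3, at -0.77 and -0.34. Among tectal transcription factors, 26 of 54 were measured. Their median was -0.23 at HH30 and -0.07 at HH35, and 17 of the 26 were higher at HH35, against 45.4% of all features. TFAP2B, an AP-2 factor, was at -0.81 and -0.02, and LHX1, a LIM homeobox gene, at -0.27 and -0.04. SOX11, a SOX gene of immature neurons, gained a Cy3 gradient at -0.21 and -0.60. NR2F2 and SOX11 were the listed tectal factors past the limit in Cy3 at HH35, and none was past it in Cy5.

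Progenitor and Notch pathway genes mostly stood on the Cy3 side at HH30, 15 of the 19 measured against 48.3% of all features. At HH35 14 did, against 56.3%. Their median was -0.18 at both stages. Past the limit in Cy3 at HH30 were 4 of the 19, against 1.28% of all features. These were the Notch targets or relatives HES5 at -0.70 and HES6 at -0.80 and the Notch ligand genes JAG1 at -0.75 and DLL1 at -0.62. At HH35 these 4 stood at -0.10, -0.37, -0.29 and -0.49, so none remained past it. PAX6, also on this list, was its only member past the limit in Cy5 at HH30, at 1.4, and stood at 0.11 at HH35. In Cy5 2.0% of all features were past it at HH30. The progenitor genes SOX2, at -0.04 and -0.15, SOX3, at -0.13 and -0.09, and NES, at 0.09 and 0.12, had no gradient at either stage. The level of HES6 changed by -3.0 in Cy5 and -3.42 in Cy3 on the log2 scale. DLL1 differed by less than the SD between control spots.

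In the list of 7 measured proneural and differentiation genes the median was -0.44 at HH30 and -0.12 at HH35. GADD45G, a growth arrest gene of that list, was at -0.52 and 0.20. Of 22 measured cell cycle genes 15 had a higher ratio at HH35, against 45.4% of all features. Their medians were -0.13 and -0.01. None was past the limit at either stage, but few of all features were. The shares in Cy5 and Cy3 were 2.0% and 1.28% at HH30 and 1.52% and 1.21% at HH35. The summed level of the 22 genes was 43850 in Cy5 and 46900 in Cy3 at HH30 and 28100 and 23703 at HH35.

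Genes of maturing neurons moved from the Cy5 to the Cy3 side. All 18 that were measured had a lower ratio at HH35, which 54.6% of all features had, 9 of them by at least 1.5-fold, against 4.94%. At HH30, 17 stood on the Cy5 side, against 51.7% of all features, and at HH35 17 stood on the Cy3 side, against 56.3%. The median was 0.26 and then -0.33. SNAP25, a protein of synaptic vesicle fusion, was at 0.23 and -0.75, and its vesicle partner VAMP2 at 0.77 and -0.19. CAMK2A, a synaptic kinase, was at 0.58 and -0.33, the vesicle protein gene SYP at 0.42 and -0.45, the axonal NEFL at 0.63 and -0.10 and the dendritic MAP2 at 0.28 and -0.57. Past the limit were VAMP2 and NEFL at HH30 and SNAP25 and STMN3 at HH35, so most members changed sides without a gradient at either stage.

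The summed level of these 18 genes was 177844 in Cy5 and 150788 in Cy3 at HH30 and 101241 and 133694 at HH35. On the anteroposterior arrays their median was -0.49 at HH35 and -1.08 at HH37, further toward Cy3 than on the mediolateral array at HH35. Those arrays have the same dye orientation, and its part in the shift of the neuronal genes was not tested. The median difference between the mediolateral stages lay between -0.54 and -0.65 in 8 other ways of processing. With the anteroposterior mean subtracted the medians were 1.05 and 0.36, on the Cy5 side at both stages. The difference stayed at -0.58, since the same value was taken from each gene on both arrays. That mean also holds anteroposterior expression, so it does not isolate the dye orientation.

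Receptors and channels also had mostly lower ratios at HH35, with fewer differences past 1.5-fold. Of 14 measured receptors for glutamate and other transmitters 13 stood on the Cy5 side at HH30, against 51.7% of all features. At HH35 4 did, against 43.7%. The medians were 0.33 and -0.11, and 2 were lower by at least 1.5-fold, against 4.94%. GRM3, a metabotropic glutamate receptor, was at 0.32 and -0.52, and GRIA4, an AMPA receptor subunit, at 0.47 and -0.10. Of 18 ion channel genes 15 had a lower ratio at HH35, against 54.6% of all features, and their median difference was -0.20. In 4 of them it was lower by at least 1.5-fold, against 4.94%. KCND2, a potassium channel of dendrites, was at 0.90 and -0.25, its modulator KCNIP4 at 1.03 and -0.08 and the sodium channel gene SCN2A at 0.70 and -0.24. The other SCN2A spot gave a difference of -0.75 against -0.94.

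Genes of GABA signalling included the largest losses. GABRQ, a subunit of the GABA-A receptor, was at 1.48 at HH30 and -0.15 at HH35, and CALB2, the calcium-binding protein calretinin of many interneurons, at 1.32 and -0.30. CALB2 levels were 6758 in Cy5 and 2707 in Cy3 at HH30 and 1952 and 2398 at HH35. Of the 10 measured members of that list, which does not hold GABRQ, 8 had a lower ratio at HH35, against 54.6% of all features. PVALB, at -0.68 and -0.31, and GABRG1, at 0.05 and 0.14, had a higher one.

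Neuropeptides held some of the highest ratios at HH30, and these were all lost. SST7, the gene of a somatostatin variant, was at 1.71 and 0.38, NPY, neuropeptide Y, at 1.51 and 0.05, and GRP, gastrin-releasing peptide, at 1.49 and 0.38. PNOC, the precursor of nociceptin, was at 0.97 and -0.16, and PENK, the precursor of enkephalins, at 0.86 and -0.12. NPY levels were 1089 in Cy5 and 384 in Cy3 at HH30 and 418 and 404 at HH35, while SST7 read 1161 and 356 and then 658 and 504. Of 21 genes measured 6 had a Cy5 gradient at HH30, against 2.0% of all features, and none at HH35, against 1.52%. The median was 0.15 and 0.04. The ratio was lower at HH35 in 14 of the 21, against 54.6% of all features, and higher in 7. TAC1 was higher by more than 1.5-fold, at -0.14 and 0.57, and NPY5R gained a Cy3 gradient, at 0.06 and -0.92. SST1 stood on the Cy3 side at both stages, at -0.47 and -0.38. The peptide genes GRP, SST7 and PNOC also stood on the Cy5 side of the anteroposterior array at HH35, at 2.49, 1.25 and 1.09.

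Guidance and adhesion genes included lost Cy5 and gained Cy3 gradients. SEMA6D, a transmembrane semaphorin, was at 1.0 and -0.25, and CNTN1, an adhesion molecule of axons, at 0.39 and -0.56. Of 34 guidance genes outside the Eph family 22 had a lower ratio at HH35, against 54.6% of all features, and their median difference of -0.15 was -0.02 with a score above 10 asked of both channels. Among 24 cadherins, the adhesion molecules CDH13 at 1.01 and -0.23 and PCDH17 at 1.01 and -0.18 lost a Cy5 gradient, and CDH6 at 0.04 and -0.61 and CDH20 at -0.33 and -0.75 gained one in Cy3. The 22 matrix genes had medians of 0.03 and 0.04, with 11 lower and 11 higher. ACAN, the matrix proteoglycan aggrecan, counted on the muscle and cartilage list, was at 1.15 and -0.41 with levels of 656 and 296 at HH30 and 1600 and 2119 at HH35. It was thus higher in both channels at HH35, and more so in Cy3.

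FGF and glial genes had lower medians at HH35. In the FGF pathway all 8 measured genes stood on the Cy3 side at HH35, against 56.3% of all features, with medians of 0.14 and -0.43. Their median difference was -0.49, or -0.27 with a score above 3 asked of only 1 channel. The ligand gene FGF1 was at 0.83 and -0.43, and the intracellular FGF relative FGF14 at 0.66 and -0.35. Among 9 glial genes the median was 0.22 and -0.32, and 4 had a ratio lower by at least 1.5-fold, against 4.94% of all features. With a score above 3 asked of only 1 channel the medians of 11 genes were 0.03 and -0.11, and the median difference was -0.09 against -0.50. The 4 included the gliogenic factors NFIA at 0.25 and -0.50 and NFIB at 0.26 and -0.52 and the astroglial glutamate transporter gene SLC1A3 at 0.38 and -0.32. CNP, at -0.42 and 0.04, and PDGFRA, at -0.23 and 0.02, had a higher ratio at HH35. AQP4, the only glial gene past the limit at either stage, stayed on the Cy5 side, at 0.97 and 0.47.

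**Figure D4:**
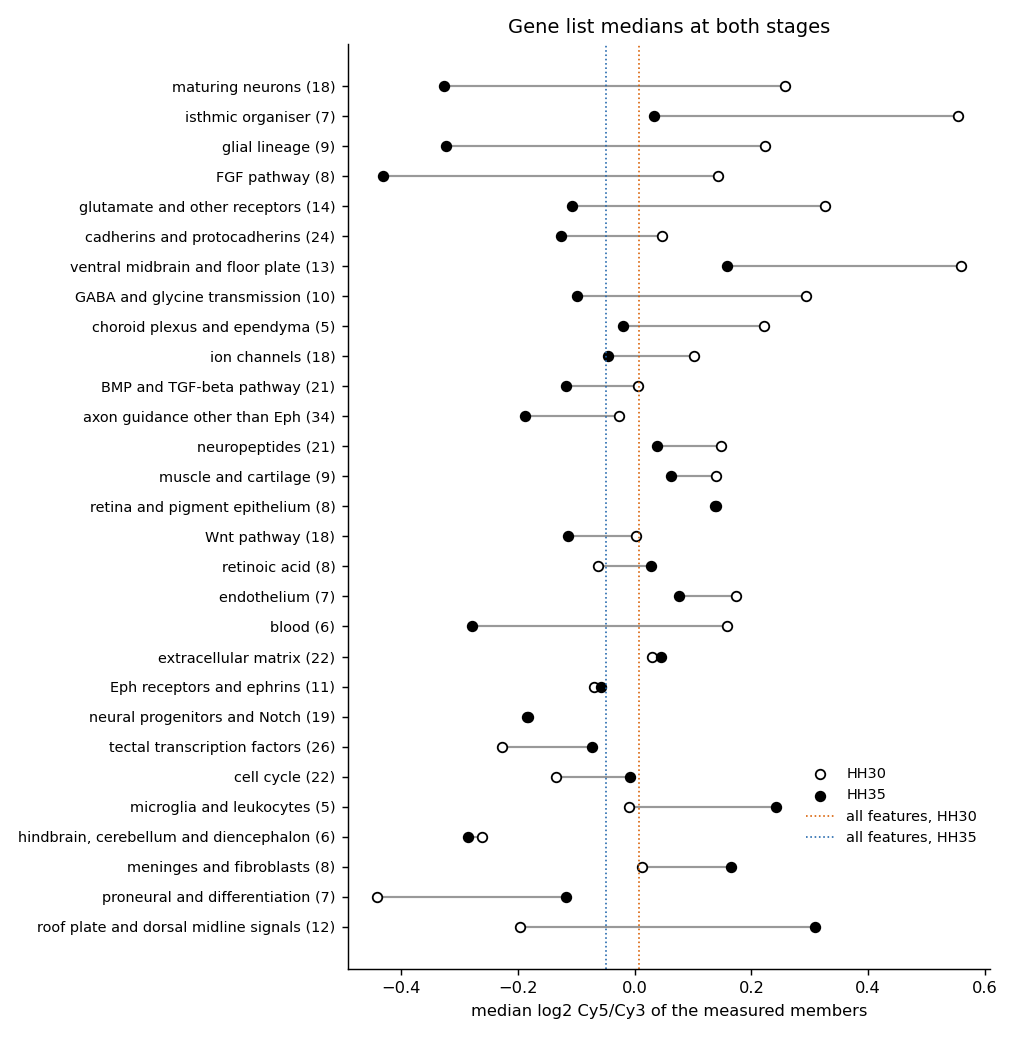
Median log2 Cy5/Cy3 ratio of the measured members of each gene list with at least 5 of them (number in brackets) at HH30 (open) and HH35 (filled), ordered by the median difference between stages, with dotted lines at the medians of all features. Maturing neurons go from 0.26 to -0.33, and roof plate genes from -0.20 to 0.31.

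The lost gradients of each channel went with different level changes. Genes that lost a Cy5 gradient had a median level change from HH30 to HH35 of -0.31 in Cy5 and 0.60 in Cy3 on the log2 scale, against -0.23 and -0.13 over all features. The rule for this class requires a lower ratio of Cy5 to Cy3 at HH35. A higher change in Cy3 than in Cy5 was therefore fixed in advance. Genes that lost a Cy3 gradient changed by -0.77 in Cy5 and -1.38 in Cy3, lower in both, and there the rule fixed the opposite order. Beside those described, the largest losses in Cy5 were the lipid-binding protein gene ANXA1 at 0.89 and -0.55, VSTM2A at 0.92 and -0.48 and the neuronal calcium sensor gene VSNL1 at 0.81 and -0.56. Those in Cy3 were BPIFB2 at -0.99 and -0.14, MTCL1 at -0.85 and -0.04 and the carnitine transporter gene SLC22A5 at -0.79 and 0.01. The other MTCL1 spot differed by 0.27 against 0.81. The authors' values gave SLC22A5 a difference of -0.11 against 0.80 here, so its direction is uncertain.

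Gained Cy5 gradients were small, apart from a pair of genes. UTRN, the cytoskeletal protein utrophin, was at 0.14 and 1.12, with levels of 291 and 264 at HH30 and 2544 and 1168 at HH35. Its other spot differed by only -0.06. SPINK5, a protease inhibitor, was at -0.27 and 0.75. The next 6 were SNRPD3, a spliceosome protein, at 0.02 and 0.65, the helicase RTEL1 at 0.00 and 0.61, INSRR, a relative of the insulin receptor, at 0.08 and 0.64, ZBTB26 at -0.03 and 0.58, RASL11A at 0.15 and 0.67, and the palmitoyltransferase ZDHHC7 at -0.02 and 0.60. The other ZDHHC7 spot differed by -0.23.

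Gained Cy3 gradients were more numerous among genes with a symbol than those in Cy5. The 93 genes had a median log2 intensity of 11.63, against 9.50 over all features, though several of the largest were dimmer than that. After WNT5A, the largest were the GTPase RAB36 at 0.51 and -0.70, TF, the iron carrier transferrin, at 0.33 and -0.86, METTL7A at 0.49 and -0.64, C1QTNF3 at 0.14 and -0.92, ITFG1 at 0.24 and -0.81, the haemoglobin gene HBA1 at 0.38 and -0.66 and IQUB at 0.38 and -0.65. HBA1 levels were 53724 and 41303 at HH30 and 5099 and 8048 at HH35. The spots of HBA1 and HBBA had over 10% of their pixels saturated.

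Most of the gained Cy3 genes had a like ratio on the anteroposterior array at HH37. There 62 of the 93 were past the limit on the Cy3 side, against 18.7% of all genes with a symbol, and at HH35 10 were, against 7.33%. Across all features the mediolateral array at HH35 correlated with r = 0.65 with the anteroposterior array at HH37 and with r = 0.41 with that at HH35. The mediolateral array at HH30 gave r = 0.06 and 0.19 with them. These arrays compare different pieces but share the dye orientation and the spots, and the part of either in the gained ratios was not tested.

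Of the 28 gained Cy5 genes 27 stood on the Cy5 side of the anteroposterior array at HH37, at a median of 0.36, and 3 were past the limit there, against 0.262% of genes with a symbol. Over all genes with a symbol the median there was -0.23. Of the 41 lost Cy3 genes 30 stood on the Cy3 side there, at a median of -0.27, close to that of all genes. Of these 41, 13 were past the limit in Cy3, against 18.7%. Of the 5 kept Cy5 genes 4 were past the limit in Cy5 on the anteroposterior array at HH35, against 2.40% of genes with a symbol, and none at HH37. Of the 112 lost Cy5 genes 17 were past it on that side at HH35 and none at HH37. Of the 6 kept Cy3 genes 1 was past it on its side at HH35, against 7.33% of genes with a symbol, and 2 at HH37, against 18.7%. TENM3, at -0.18 and -0.20, COL23A1, at -0.15 and -0.13, and WNT3A, at 0.20 and 0.25, were within the limit on both. BOC was past it on the Cy5 side at HH35, at 0.67.

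**Figure D5:**
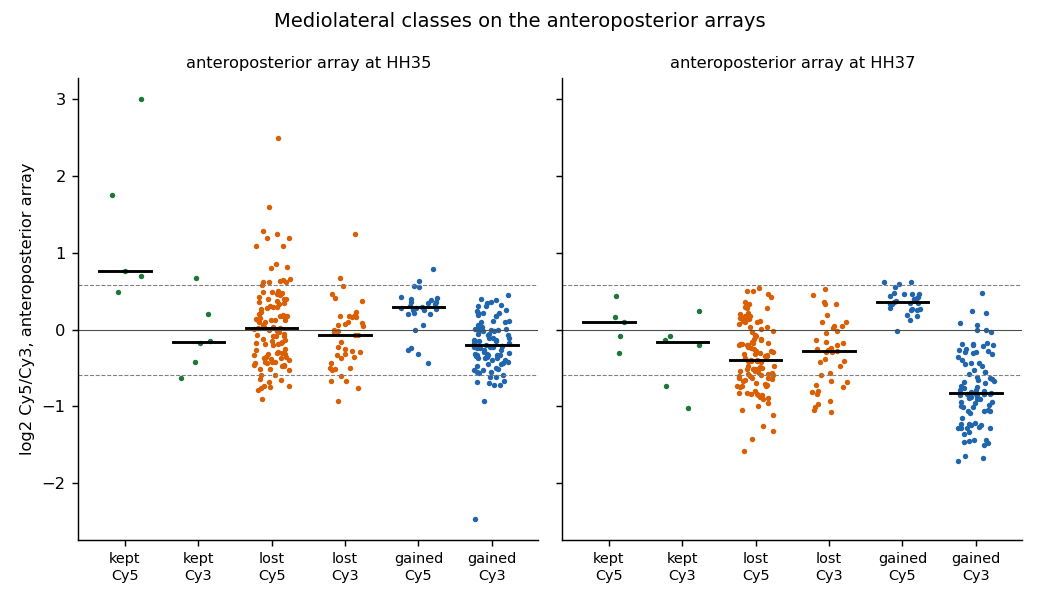
Log2 Cy5/Cy3 ratio on the anteroposterior arrays at HH35 (left) and HH37 (right) of the genes with a symbol in each mediolateral class and channel, 1 point per gene, spread sideways at random, with the median as a bar and dashed lines at 1.5-fold. The 93 gained Cy3 genes have a median of -0.83 at HH37 and -0.20 at HH35.

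Markers of cells other than neural ones were few and mostly without a gradient, as were 15076 of all 15983 features. On the blood list 6 of 16 genes were measured, with a summed level of 113257 in Cy5 and 95935 in Cy3 at HH30 and 24311 and 36858 at HH35. HBA1 at 53724 and HBBA at 55777 made up nearly all of the Cy5 sum at HH30, and both spots are saturated, so these sums are not exact. Of 7 endothelial and 5 microglial and leukocyte genes none was past the limit at either stage. Of 8 genes of meninges and fibroblasts 1 was past the limit, PTGDS at 0.26 and 0.61. All 8 stood on the Cy5 side at HH35, where 43.7% of all features did, against 4 at HH30. Their summed level was 38595 in Cy5 and 47131 in Cy3 at HH30 and 37207 and 32799 at HH35. COL1A2, the fibrillar collagen gene of that list, was at -0.57 and 0.02. The meningeal shift went with that of the roof plate genes, and its part in it was not tested.

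The retinoic acid pathway gave 8 measured genes of 18, of which CYP26C1 alone had a gradient. The synthesis enzyme genes ALDH1A1, ALDH1A2 and ALDH1A3 were not measured, since their Cy5 scores at HH35 were 2.82, 1.68 and 0.42.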

How the data were processed

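Spot tables of 4 two-colour arrays were used, of which both mediolateral arrays carry the comparison. The deposited spot tables give the mean foreground and median background intensity of each spot, not normalised, per the file headers, and the columns are those of GenePix, while the submitters' processing notes name Agilent Feature Extraction. The signal-to-noise score was deposited with them and equals the mean foreground less the background over its SD, and the percent of saturated pixels was deposited too. A ratio for every spot on every array stands in the authors' deposited table, and its log2 in the deposited value table, with normalisation steps and genome build not given in the sources used here.

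Here limma 3.58.1, run in R 4.3.3, corrected backgrounds by normexp with an offset of 50 and normalised log2 ratios within arrays by loess, whose span was 0.3 and which gave control spots no weight. Levels were scaled between all 4 arrays by their average intensity (Aquantile). Tables were made with Python 3.11.15, numpy 2.4.6 and pandas 2.3.3, and drawn with matplotlib 3.10.9. Saturated spots were kept. Gene symbols were matched through each spot's deposited name and accession to RefSeq gene names of assembly GRCg7b, which served for naming only. They named 10077 probes of 8612 genes. Names disagreed for 83 probes, which stayed unnamed, and 6 probes, EN1, NKX6-1 and ZIC2 among them, were named from their descriptions after the files were seen. Overlapping genes and copies were not separated.

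The classes and the 30 gene lists were chosen with earlier results of these data known, so no list is independent support. Counts and medians are descriptions with no test. The number of arrays limits the precision. Each group is 1 array, so array and group cannot be told apart. The classing was run on simulated data whose planted ratios lay well past the limit. That run checks the steps only and cannot show how genes near the limit are classed. The 154 genes that qualified for naming were all reversed genes, up to 8 per class and channel, the 6 largest differences each way, 24 patterning genes where measured and up to 4 per list. Other list members are named where their list is described, chosen after their values were seen. A few qualifying genes are not reported here. Alternatives covered the background correction, centring, the authors' values, scaling, filters on dim and saturated spots, the limits and the choice of probe.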

Additional observations from a re-analysis of the deposited data

Results flagged for a closer look

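The 4 genes with a symbol whose gradient lay on opposite sides at the stages are listed for a closer look. The difference of the log2 ratio, HH35 minus HH30, was -1.89 for NR2F2, -1.68 for GBX2, -1.38 for MAP7D2 and -1.25 for C8orf22. With 1 array per stage the difference between the stages was not tested. NR2F2 stayed in the class in 8 of 9 alternatives and GBX2 in 6 of 8. MAP7D2 did so in 4 of 9, and C8orf22 in 5 of 8, and the second MAP7D2 spot showed no such difference, at 0.03. NR2F2, GBX2 and C8orf22 each had 1 passing spot. Alternatives that change only the filter or average the spots could not alter their class, so their counts overstate how stable it is.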

How the results depend on the processing

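Without replicates the numbers carry no error between samples, no array could be left out, and no paired analysis was possible because each group is 1 array. Against 48 kept, 470 lost, 382 gained and 7 reversed features, plain background subtraction gave 88 kept, 587 gained and 14 reversed, and the authors' values gave 148 kept, 788 lost, 889 gained and 20 reversed. Equal scaling gave 163 gained and 3 reversed. A score above 10 in both channels gave 258 lost and 251 gained, and a 2-fold limit 4 kept, 63 lost, 9 gained and 0 reversed. Asking also for a 1.5-fold difference between the stages gave 282 lost and 119 gained. Subtracting the anteroposterior mean, chosen after seeing the data, gave 402 kept, 1751 lost and 1 reversed. The cause of these changes was not tested, apart from the stricter limits and filters, which leave fewer features. All other class totals lay within 1.5 times. By channel, median centring also moved kept Cy3 features from 16 to 32 and gained Cy3 from 171 to 350, and lost Cy3 features went from 189 to 287 under equal scaling and to 295 with a score above 3 asked of only 1 channel. A score above 10 in both channels left 10 kept in Cy3, and subtracting the anteroposterior mean left 83 gained in Cy3. Of the 154 named genes, between 150 and 152 kept the sign of their difference under plain subtraction, median centring, the authors' values and equal scaling. The sign turned for SLC22A5, to -0.11, in the authors' values, and for TENM3, which had no large difference, to 0.04 under equal scaling. Dim spots are limited most in Cy5, where 46.8% and 48.1% of spots had a score above 3 at HH30 and HH35, against 66.7% and 67.7% in Cy3.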
